A study of Mus musculus with 12 samples.

Results

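The 43 genes described here build ribosomes. They were taken by name as a list of nucleolar, ribosomal RNA (rRNA) processing and RNA polymerase I genes. Their measured values were not used, but earlier results of these data were known when the list was chosen. All 43 were found among the 31053 genes of the deposited matrices. By role they fall into 6 sets. The RNA polymerase I set holds 6 genes (Polr1a, Polr1b, Polr1c, Polr1d, Ubtf and Rrn3), and the nucleolar protein set holds 6 (Ncl, Npm1, Nolc1, Tcof1, Mybbp1a and Gnl3). The box C/D set, whose small nucleolar ribonucleoproteins (snoRNPs) methylate rRNA, holds 3 (Fbl, Nop56 and Nop58), and the box H/ACA set, whose particles convert uridine to pseudouridine, holds 4 (Dkc1, Gar1, Nhp2 and Nop10). Small subunit assembly has 14 members (Wdr43, Utp14a, Utp20, Heatr1, Imp3, Imp4, Rrp9, Nop14, Bysl, Nob1, Pno1, Tsr1, Ltv1 and Rrp12) and large subunit assembly has 10 (Nop2, Nop16, Rrs1, Bop1, Wdr12, Pes1, Nip7, Ebna1bp2, Mrto4 and Rrp1).

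Ribosomes are assembled in the nucleolus. RNA polymerase I transcribes a long rRNA precursor, snoRNPs guide its modification, and assembly factors fold, cut and package it with ribosomal proteins into a small and a large subunit. Assembly factors leave before the subunit works in translation, so their mRNAs report on the making of ribosomes, whereas ribosomal protein mRNAs encode the finished particle. Ribosomal protein mRNAs belong to a class whose translation depends on the kinase mTOR, and many assembly factor genes are known targets of the transcription factor MYC. In adipose tissue, adipocyte progenitor cells (APCs) divide and differentiate into adipocytes, and both steps draw on new ribosomes. The question asked of these data was whether shifts in the 82 ribosomal protein genes came with shifts in the genes that assemble ribosomes.

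Single-cell RNA was sequenced from the stromal vascular fraction, the non-adipocyte cells freed from fat with collagenase, of epididymal (eWAT) and inguinal (iWAT) white adipose tissue. All mice were males aged 12 weeks. The WT-Veh group were C57BL/6J mice given methylcellulose vehicle, the ob/ob-Veh group were Lepob/Lepob mice, which lack functional leptin and become obese, given the same vehicle, and the ob/ob-Rosi group were Lepob/Lepob mice given 30 mg/kg of rosiglitazone, an agonist of the nuclear receptor PPARγ, by oral gavage each morning and evening for 3 days. Each group had 2 libraries per depot, 12 in all, and no WT mice given rosiglitazone were among the samples analyzed here. The mutation is present in every cell of the mouse, and each library came from small biopsies of several places in a depot, so tissue between them was not sampled.

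The 12 matrices held 20132553 to 92475986 unique molecular identifiers (UMIs, each standing for 1 captured mRNA molecule), and 6472 to 17500 cells per library were kept. Cells were clustered without the 43 members and without the ribosomal protein genes, and clusters were named from marker genes, so every class below carries the word "like". Group names are those of the labels. Lipid-associated macrophages (LAMs) are known to build up in obese fat, while LAM-like and cycling LAM-like cells made up 0.262% and 0.284% of the eWAT cells labeled ob/ob-Veh against 13.3% and 10.4% in WT-Veh and 11.7% and 17.7% in ob/ob-Rosi. In iWAT the same shares were 1.05% and 0.625% in ob/ob-Veh, 4.71% and 7.12% in WT-Veh and 16.8% and 9.58% in ob/ob-Rosi. Floating cells were discarded in the preparation, so from these matrices alone few LAMs and LAMs lost with the floating cells cannot be told apart. The study addressed this with other experiments, and these shares do not check the labels. Lep, the leptin gene, did not separate the genotypes either. Per 100 UMIs of the adipocyte gene Adipoq it had 28.0 and 42.5 UMIs in WT-Veh, 3.95 and 16.2 in ob/ob-Veh and 240 and 390 in ob/ob-Rosi of eWAT. The iWAT values were 20.1 and 31.6, 36.4 and 15.1, and 164 and 141, and the ratios of both depots rest on only 4 to 277 Lep and 11 to 265 Adipoq UMIs per library. The highest ratios were thus in ob/ob-Rosi, which has the genotype of ob/ob-Veh, and each direction below holds for libraries as labeled. Cells in no named class entered no comparison. They numbered 11169 of 17063 in iWAT WT-Veh 1, with a median of 1029 UMIs, 3384 of 7205 and 2572 of 7203 in iWAT ob/ob-Veh, 577 to 994 in the other iWAT libraries and 220 to 860 in the eWAT libraries. Between 32467 and 167044 UMIs per library came from the 43 members. Npm1 was found in 43.7% to 78.5% of the cells of a library, the median member in 4.18% to 16.7%, and the least detected member in 1.5% to 4.19%. Levels are given as CPM, the UMIs of a gene in 1000000 UMIs of a class in a library, and are not divided by transcript length, since a 3′ library counts each captured molecule once. CPM is a share, so fewer member molecules and more molecules of other genes cannot be told apart.

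Many members could be matched to a promoter sequence, and a set of them carries the E-box CACGTG, the letters to which MYC is known to bind. Promoters from RefSeq (GRCm38.p6), 250 bases before to 50 after the start site, were matched for 37 of the 43 members. The E-box, which reads the same on both strands, was in 10 of the 37 (27.0%) and in 8.09% of 27025 promoters in the table, 11.2% of 11220 promoters of genes tested in these data and 9.84% of 61 ribosomal protein promoters. The 10 genes were Imp4, Ltv1, Mybbp1a, Nop2, Pes1, Pno1, Rrn3, Tsr1, Utp20 and Wdr43. TATAAA, searched on both strands as a comparison, was in 2 of the 37 (5.41%, Dkc1 and Pes1), 15.7% of all promoters, 9.57% of the 11220 promoters of tested genes and 11.5% of ribosomal protein promoters. The 4 windows printed here are shown on the plus strand with the E-box in capitals because they come from genes of 3 different steps. Rrn3, the factor that brings RNA polymerase I to its promoter, has a pair of them, at positions -215 and -48 from the start site (chr16:13780474-13780499 and chr16:13780641-13780666). Nop2, an rRNA methyltransferase of the large subunit, has its E-box at -60 (chr6:125131813-125131838), and Imp4, a protein of the U3 snoRNP that acts in small subunit assembly, has its at -121 (chr1:34439698-34439723).
Rrn3 upstream: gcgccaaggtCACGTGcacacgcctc
Rrn3 near the start: acgctctgctCACGTGggccgcgtcc
Nop2: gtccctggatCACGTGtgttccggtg
Imp4: ggtcttagacCACGTGacatcccaaa
A match in letters is a description of the sequence and does not show a site in use.

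The members differed widely in level. Averaged over eWAT classes, Npm1, which encodes the nucleolar chaperone nucleophosmin, had the highest level at 603 CPM, ahead of Ncl (nucleolin, 403 CPM), Polr1d (a subunit shared by RNA polymerases I and III, 198 CPM), Rrp1 (large subunit assembly, 111 CPM) and Nop10 (box H/ACA, 109 CPM). In iWAT Npm1 (489 CPM), Ncl (345 CPM) and Polr1d (162 CPM) came first again, followed by Nop10 (99.7 CPM) and Ubtf, the upstream binding factor of RNA polymerase I (88.4 CPM).

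Summed over the 43 members, cycling LAM-like cells had the highest mean over the libraries that held them in both depots, and preadipocyte-like, endothelial (EC)-like and progenitor-like cells lay near the bottom. In eWAT the summed level was 3590 ± 541 CPM (SD, n = 4 libraries) in cycling LAM-like cells, 3126 ± 541 in natural killer T (NKT)-like cells and 3015 ± 308 in dendritic cell (DC)-like cells. At the low end it was 2269 ± 252 in progenitor-like, 2181 ± 351 in EC-like and 2127 ± 237 in preadipocyte-like cells (n = 6 each). In iWAT cycling LAM-like cells had 2985 ± 792 CPM (n = 5), progenitor-like cells 2007 ± 244, EC-like cells 1976 ± 296 and preadipocyte-like cells 1927 ± 375 (n = 6 each), with neutrophil-like cells lowest at 1640 ± 201 (n = 4). Over the 4 eWAT libraries that held both, cycling LAM-like cells had a mean of 3590 and NKT-like cells of 3351 CPM, and NKT-like cells were the higher in WT-Veh 2 (3707 against 3587) and ob/ob-Rosi 2 (3503 against 3252). The first place in iWAT came from WT-Veh, at 3922 and 3400 CPM, since in ob/ob-Rosi cycling LAM-like cells were at 2843 and 2976 CPM and lay, within each library, below NKT-like (2854 and 3416) and DC-like cells (2927 and 3408). Neighbors in this order were close: in 0 of 12 neighboring pairs in eWAT and 0 of 10 in iWAT did the means differ by more than the larger SD.

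**Figure D1:**
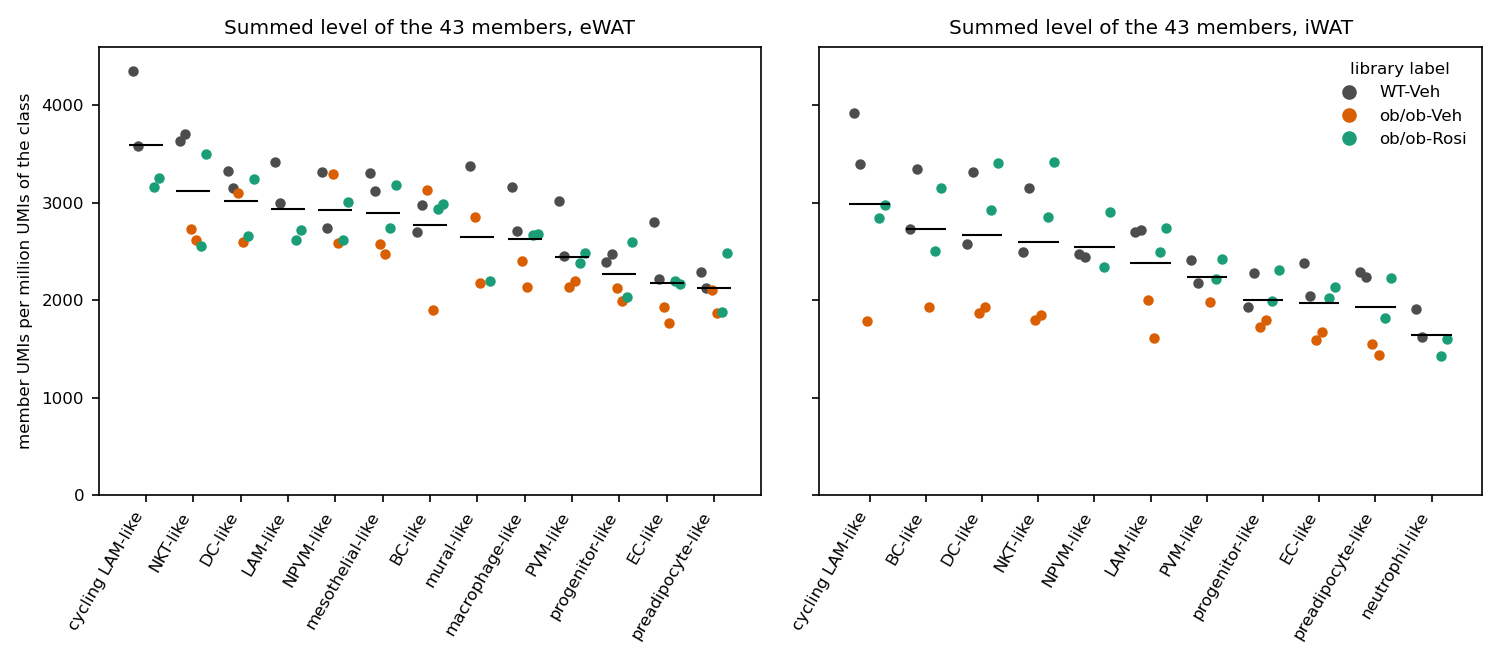
Summed level of the 43 members, in CPM of the class (y axis, from 0), in each cell class (x axis, ordered by mean) of eWAT (left) and iWAT (right). BC stands for B cell and NPVM for non-perivascular macrophage. Each point is a library colored by its label, the bar is the mean over libraries with at least 20 cells, and the ob/ob-Veh points lie below all 4 others in 6 of the 6 iWAT classes that all 6 libraries hold but in 4 of 10 in eWAT.

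Classes were then compared with the mean of the other classes in an edgeR fit that kept the library as a block. Calls needed a p of 0.05 or less after Benjamini-Hochberg adjustment together with a 1.1-fold or larger difference. DC-like and LAM-like classes had more members called higher than lower, and EC-like cells the reverse. In eWAT, 20 members were higher and 2 lower in DC-like cells (26.5% of all genes were called higher and 26.9% lower), 19 higher and 1 lower in LAM-like cells (28.3% and 26.4%) and 15 higher and 3 lower in cycling LAM-like cells (25.4% and 27.6%). In EC-like cells 2 were higher and 28 lower (34.9% and 22.9%), and in preadipocyte-like cells 9 were higher and 13 lower (46.0% and 22.0%). The ribosomal protein genes followed another order. They were higher in eWAT DC-like cells (81 of 82) and NKT-like cells (74 higher, 1 lower, with 25.9% of all genes higher). They were lower in EC-like (81 of 82) and preadipocyte-like cells (72), but in cycling LAM-like cells 2 were higher and 6 lower. In iWAT 76 were higher in progenitor-like cells (38.2% of all genes) and 36 in DC-like cells, and 64 were lower in EC-like cells. NKT-like cells of iWAT had 0 higher and 1 lower (21.0% and 11.6% of all genes), and preadipocyte-like cells 4 lower.

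In iWAT the same classes stood apart, and the counts depended on whether the small neutrophil-like class was in the mean. With it, 20 members were higher and 0 lower in LAM-like cells (28.1% and 18.7% of all genes), 14 and 0 in DC-like cells (19.7% and 17.8%), 4 and 20 in EC-like cells (31.9% and 23.3%) and 9 and 9 in preadipocyte-like cells (37.5% and 23.4%). Without it, an alternative chosen after seeing the data, the counts were 18 and 1 (28.2% and 21.7%), 12 and 1 (20.2% and 18.3%), 2 and 30 (31.0% and 28.7%) and 5 and 12 (34.0% and 30.3%). Polr1b, Nob1 and Wdr12 had 0 UMIs in the 279568 UMIs of neutrophil-like cells, which allows a level of up to 10.7 CPM.

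The roles were not called evenly. In LAM-like cells of eWAT, 8 of 10 large subunit and 7 of 14 small subunit assembly genes were higher and none of either was lower. Imp4 (0.88 ± 0.10 SE on the log2 scale, adjusted p = 6.09e-12), Pno1 (a late small subunit factor, 0.81 ± 0.14, adjusted p = 8.26e-07) and Nop16 (large subunit assembly, 0.74 ± 0.15, adjusted p = 2.02e-05) were among them. In cycling LAM-like cells 6 large subunit genes were higher and 1 lower, 4 of the 6 nucleolar proteins were higher, and 2 of the 6 RNA polymerase I genes were lower with none higher. In EC-like cells 10 small subunit genes, 7 large subunit genes, 4 nucleolar proteins and all 3 box C/D proteins were lower.

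Fbl, the rRNA methyltransferase fibrillarin, had the widest range among eWAT classes. It stood at 198 and 277 CPM in the WT-Veh libraries, 218 and 185 in ob/ob-Veh and 158 and 311 in ob/ob-Rosi of DC-like cells, and at 57.4 and 43.1, 35.0 and 25.9, and 56.5 and 46.0 CPM in EC-like cells. The classes did not overlap in any library, and their means, 224 ± 58.3 and 44.0 ± 12.2 CPM (SD, n = 6), were 5.10-fold apart. Against the mean of the other classes Fbl was higher in DC-like cells by 1.78 ± 0.09 (SE, log2, adjusted p = 1.01e-28) in eWAT and by 1.69 ± 0.16 (adjusted p = 8.01e-14) in iWAT. Nop56 and Nop58, which sit with Fbl in the box C/D core, were called higher in eWAT DC-like cells as well.

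Rrs1, a factor that brings the 5S ribonucleoprotein into the large subunit, had a pattern of the opposite kind. In eWAT preadipocyte-like cells it was at 69.0 and 47.9 CPM in WT-Veh, at 48.8 and 42.4 CPM in ob/ob-Veh and at 43.5 and 75.9 CPM in ob/ob-Rosi, against 15.8 and 10.1, 9.05 and 12.9, and 9.41 and 16.04 CPM in DC-like cells. The lowest preadipocyte-like library was above the highest DC-like library, with a 4.46-fold range between the class means. Rrs1 was higher in preadipocyte-like cells than in the mean of the other classes by 1.41 ± 0.10 in eWAT (SE, log2, adjusted p = 2.23e-21) and 1.55 ± 0.12 in iWAT (adjusted p = 5.71e-17). In the same eWAT cells Tcof1, the RNA polymerase I cofactor treacle, was lower by 0.94 ± 0.12 (adjusted p = 5.46e-10) and Ncl was lower by 0.68 ± 0.08 (adjusted p = 4.42e-11). The next widest eWAT ranges were those of Rrp12 (4.14-fold, small subunit), Dkc1 (3.91-fold, the pseudouridine synthase of the H/ACA core, lowest in perivascular macrophage (PVM)-like cells) and Utp20 (3.80-fold, small subunit). In iWAT Polr1a, the largest RNA polymerase I subunit, and Heatr1, Tcof1 and Rrs1 were lowest in the 178 neutrophil-like cells, at mean levels near or under the 10.7 CPM that a count of 0 allows there, so no fold is given for them or for the 3 members at 0 there. Fbl had a 4.84-fold range in iWAT, DC-like against EC-like.

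**Figure D2:**
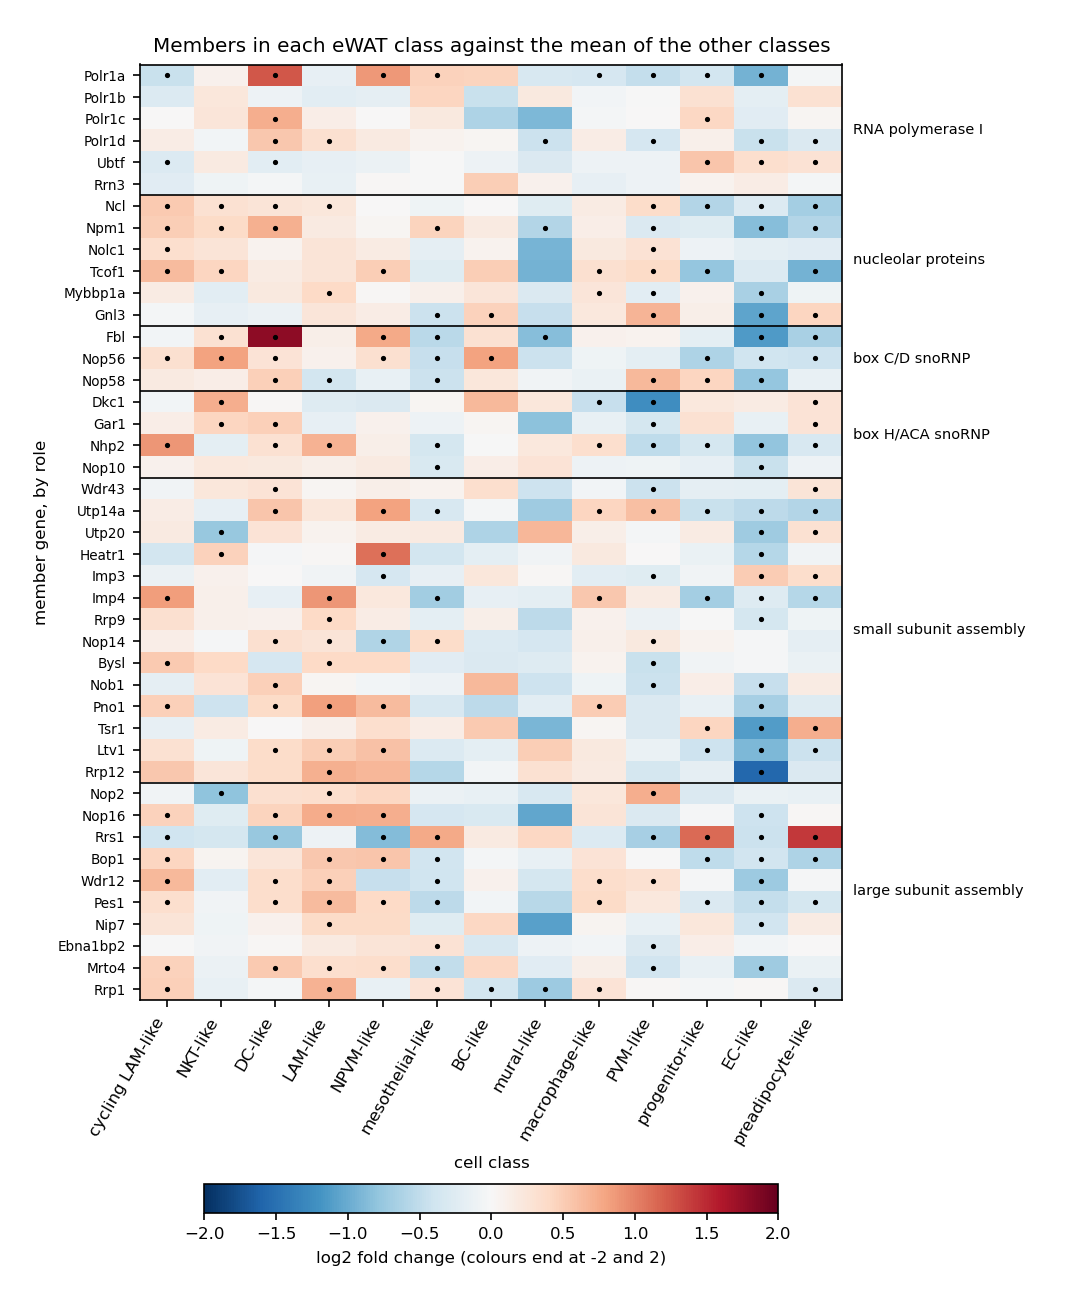
Log2 difference of each member (y axis, grouped by role) in each eWAT class (x axis, ordered by summed level) from the mean of the other classes, blue lower and red higher, with black dots on calls. Fbl is darkest in DC-like cells (1.78) and Rrs1 in preadipocyte-like cells (1.41), and the EC-like column holds 28 members called lower and 2 higher.

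Cycling LAM-like cells are set apart by genes of cell division, which were not members. Nhp2, an H/ACA core protein, was at 204 and 149 CPM in the WT-Veh and 137 and 189 in the ob/ob-Rosi libraries of eWAT, and Ncl was at 856 and 676 and at 469 and 492 CPM. The ob/ob-Veh libraries held too few such cells to count. Nhp2 was higher than in the other classes by 0.88 ± 0.11 (SE, log2, adjusted p = 5.30e-10), Imp4 by 0.83 ± 0.10 (adjusted p = 2.48e-10), Wdr12, of the complex it forms with Pes1 and Bop1, by 0.65 ± 0.13 (adjusted p = 2.22e-05), Ncl by 0.53 ± 0.09 (adjusted p = 1.04e-06) and Npm1 by 0.50 ± 0.12 (adjusted p = 0.000301). Fbl was not called (-0.06 ± 0.12, adjusted p = 0.758). In iWAT 9 members were higher and 1 lower (21.3% and 14.9% of all genes), Nhp2 by 1.06 ± 0.19 (adjusted p = 4.69e-06) and Tcof1 by 0.86 ± 0.17 (adjusted p = 2.94e-05). The iWAT count rests on single libraries, since it was 2 without WT-Veh 2 and 17 without ob/ob-Veh 2, and it was 6 higher and 2 lower when neutrophil-like cells were left out of the comparison (19.1% and 18.1% of all genes). In eWAT it was 8 once every cell was thinned to 700 UMIs and 24 with likely doublets left out.

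Next, ob/ob-Veh was compared with WT-Veh (the ob/ob effect) and ob/ob-Rosi with ob/ob-Veh (the Rosi effect) in progenitor-like and preadipocyte-like cells, with edgeR on UMI sums per library. These effects share the ob/ob-Veh libraries, so opposite signs in them are partly built in and are given side by side only. With 2 libraries per group, an exact permutation test of a single value cannot go below p = 0.33, and p-values from edgeR measure the spread between those libraries. edgeR as fitted here called no member in any of the 8 comparisons. In iWAT preadipocyte-like cells DESeq2 called 1 member for the ob/ob effect and 2 for the Rosi effect, and edgeR without a filter on low counts called 9 and 7. Without that filter edgeR called 1342 of all genes for the Rosi effect, against 114 with it. Simulated 4-fold changes, in genes drawn at random from all tested, were called in 71% to 83% at this design and 2-fold changes in 8% to 30%. Changes of about 2-fold or less were thus mostly not detectable in such genes, and the members were not simulated apart.

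Preadipocyte-like cells of iWAT showed the lowest levels in ob/ob-Veh. Summed over the members the level was 2289 and 2237 CPM in WT-Veh, 1550 and 1441 in ob/ob-Veh and 1820 and 2223 in ob/ob-Rosi, with no overlap between ob/ob-Veh and either other group. edgeR called 0 of 43 members for the ob/ob effect (0.756% of 11776 genes tested were called) and 0 for the Rosi effect (0.968%). At an unadjusted p under 0.05, 20 were lower and 0 higher for the ob/ob effect (9.83% of all genes were lower at that limit), and 10 were higher and 0 lower for the Rosi effect (10.9% of all genes were higher). DESeq2 called Gnl3 for the first and Imp3 and Nhp2 for the second, so the absence of calls depends on the test and on the filter. Of the 43, 4 lay above 0 for the ob/ob effect, with a median log2 change of -0.68, and 32 for the Rosi effect, with a median of 0.41, where the all-gene medians were near 0.

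By role, the ob/ob effect in iWAT preadipocyte-like cells had medians of -0.34 for RNA polymerase I, -0.81 for nucleolar proteins, -0.34 for box C/D, -0.84 for box H/ACA and -0.58 for small subunit assembly, and the 10 large subunit genes were all below 0. With rosiglitazone the RNA polymerase I and box C/D sets both had a median of 0.02, against 0.51 for nucleolar proteins, 0.55 for box H/ACA, 0.31 for small subunit and 0.55 for large subunit assembly. The summed RNA polymerase I level shows the smaller shift, at 285 and 351 CPM in WT-Veh, 250 and 262 in ob/ob-Veh and 271 and 322 in ob/ob-Rosi.

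Ncl was at 285 and 233 CPM in WT-Veh, 158 and 114 in ob/ob-Veh and 196 and 273 in ob/ob-Rosi, so ob/ob-Veh lay below all other libraries, yet neither the ob/ob effect (-0.92 ± 0.31 SE, edgeR adjusted p = 0.17) nor the Rosi effect (0.79 ± 0.30, adjusted p = 0.19) was called. Npm1, at 388 and 348, 328 and 258, and 354 and 338 CPM, had smaller differences (-0.32, edgeR adjusted p = 0.581, and 0.25, adjusted p = 0.638). Fbl, at 55.8 and 55.1, 44.1 and 43.3, and 39.3 and 48.8 CPM, had ob/ob-Rosi libraries on both sides of ob/ob-Veh (0.02 ± 0.25, edgeR adjusted p = 0.972).

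The members with the smallest p were uncalled by edgeR as well. Gnl3, the nucleolar GTPase nucleostemin, was at 145 and 69.1 CPM in WT-Veh, 44.1 and 47.4 in ob/ob-Veh and 84.0 and 92.6 in ob/ob-Rosi (ob/ob effect -1.20 ± 0.36 SE, edgeR adjusted p = 0.137). Mrto4, which holds the place of a stalk protein on the maturing large subunit, was at 34.7 and 36.6, 17.8 and 17.5, and 29.2 and 44.5 CPM (-1.02 ± 0.30, edgeR adjusted p = 0.134, and 1.07 ± 0.29, adjusted p = 0.0972). In both genes ob/ob-Veh lay below the other libraries without overlap.
Rrp9, a U3 snoRNP protein, was at 9.30 and 13.5, 3.29 and 5.09, and 8.43 and 13.1 CPM (-1.46 ± 0.44, edgeR adjusted p = 0.139). With the smallest p for the Rosi effect, Nhp2 was at 38.9 and 71.6, 25.3 and 27.4, and 51.9 and 71.1 CPM (1.23 ± 0.33, edgeR adjusted p = 0.0935). Imp3, which joins the U3 snoRNA to the rRNA precursor, was at 75.3 and 129, 39.4 and 63.3, and 100 and 136 CPM (1.21 ± 0.34, edgeR adjusted p = 0.104). WT-Veh 1 lay far from WT-Veh 2 in Gnl3, Nhp2 and Imp3. Without WT-Veh 1 edgeR called members for both effects, and it also called more of all genes for the ob/ob effect.

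**Figure D3:**
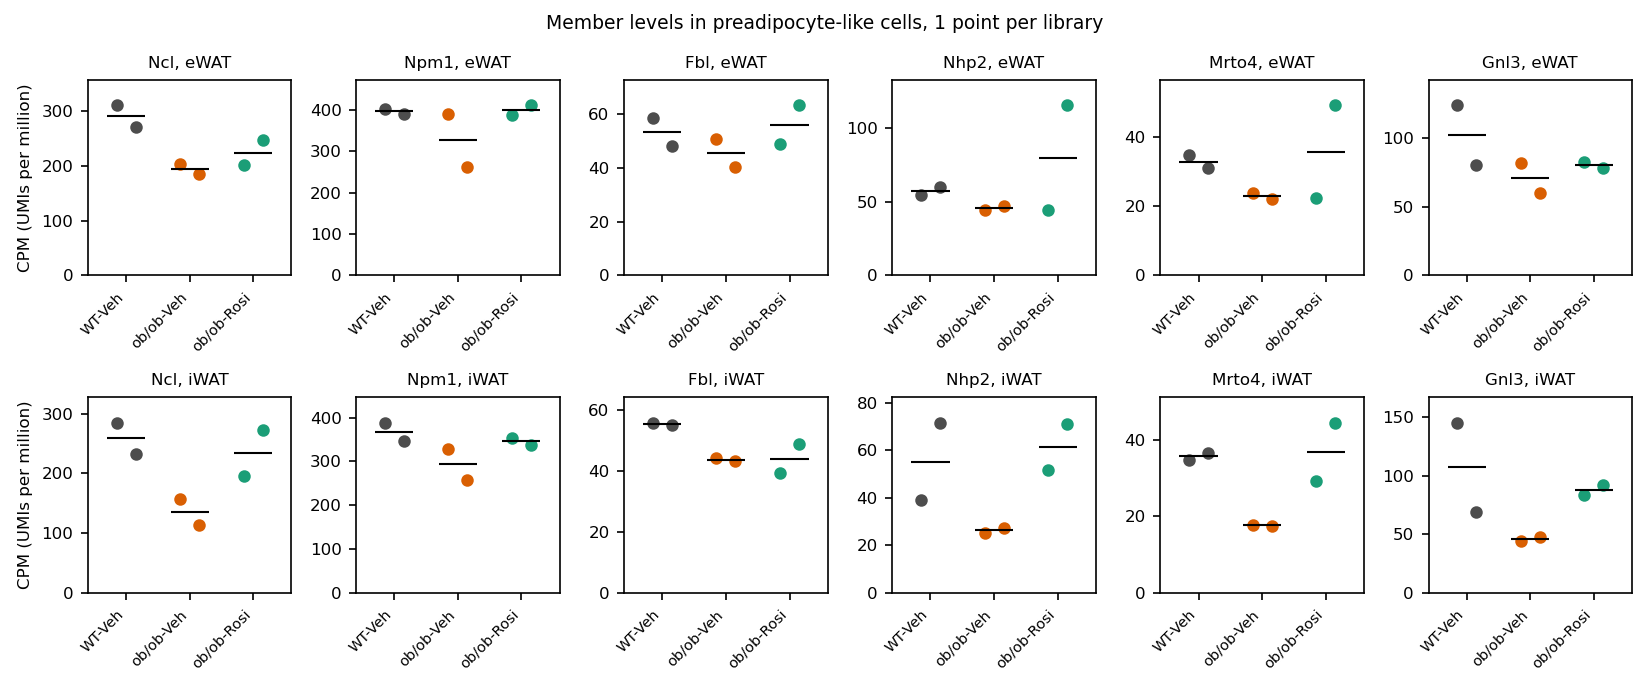
Level of 6 members in preadipocyte-like cells, in CPM (y axes, each from 0), by label (x axis) in eWAT (top) and iWAT (bottom). Each point is a library and each bar the mean of 2 libraries. In iWAT the ob/ob-Veh points of Ncl, Nhp2, Mrto4 and Gnl3 lie below all others, and in eWAT ob/ob-Rosi 2 alone raises the Nhp2 and Mrto4 means.

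These values moved together with others of the same cells. In iWAT preadipocyte-like cells ribosomal protein genes took 9.43% and 14.3% of UMIs in WT-Veh, 6.89% and 7.59% in ob/ob-Veh and 12.4% and 14.7% in ob/ob-Rosi, and their median changes were -0.79 and 0.96, with none called by edgeR and 44 lower and 61 higher at an unadjusted p under 0.05 for the ob/ob and Rosi effects. Members per 1000 ribosomal protein UMIs were therefore not lowest in ob/ob-Veh: 24.3 and 15.7 in WT-Veh, 22.5 and 19.0 in ob/ob-Veh, 14.6 and 15.1 in ob/ob-Rosi. Mitochondrial UMIs were 6.68% and 3.54%, 5.37% and 6.97%, and 5.29% and 2.44%. The class was also made of different subclusters: 90.8% of its ob/ob-Veh cells came from a subcluster led by Gas6 and Sult1e1 that held 0.498% of its WT-Veh and 1.76% of its ob/ob-Rosi cells. The part of these in the members' values was not tested.

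Progenitor-like cells of iWAT, as named here, gave smaller differences in the same directions, but they leave out much of ob/ob-Veh. Of the iWAT APC-like cells 56.5% and 53.1% in ob/ob-Veh were neither progenitor-like nor preadipocyte-like, against 6.65% and 1.21% in WT-Veh and 1.97% and 0.883% in ob/ob-Rosi. The summed level was 1931 and 2283 CPM in WT-Veh, 1724 and 1798 in ob/ob-Veh and 1997 and 2312 in ob/ob-Rosi, again lowest in both ob/ob-Veh libraries. edgeR and DESeq2 called 0 of 43 members for both effects (edgeR called 0.711% and 1.88% of 12373 genes), 6 were lower for the ob/ob effect and 6 higher for the Rosi effect at an unadjusted p under 0.05 (5.68% and 8.70% of all genes), and the medians were -0.25 and 0.25. With the unnamed APC-like cells counted as progenitor-like, an alternative chosen after seeing the data, edgeR still called 0 members and the medians were -0.45 and 0.49. For the class as named, the Rosi medians were -0.02 for RNA polymerase I and 0.45 for box H/ACA.

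Nolc1, a chaperone of snoRNPs, had the smallest p for the ob/ob effect at 46.1 and 40.5 CPM in WT-Veh, 22.7 and 25.3 in ob/ob-Veh and 34.0 and 34.7 in ob/ob-Rosi (-0.83 ± 0.24 SE, edgeR adjusted p = 0.204). Rrs1 was at 50.4 and 35.9, 24.9 and 23.1, and 25.4 and 34.1 CPM (-0.78 ± 0.29, edgeR adjusted p = 0.338), and Nop56 at 46.1 and 38.0, 26.1 and 26.4, and 39.8 and 36.5 CPM (-0.64 ± 0.24, edgeR adjusted p = 0.345). In all 3 genes ob/ob-Veh lay below the other libraries.
For the Rosi effect the smallest p values belonged to Nhp2 (23.0 and 53.9, 26.3 and 30.2, and 46.2 and 66.2 CPM, 1.03 ± 0.36, edgeR adjusted p = 0.213), Mrto4 (0.80 ± 0.30, edgeR adjusted p = 0.237) and Nop14, a small subunit processome protein (0.84 ± 0.32, edgeR adjusted p = 0.243). WT-Veh 1 was as low as ob/ob-Veh in Nhp2. Ncl, Npm1 and Fbl had Rosi effects of 0.43, 0.25 and 0.36 and ob/ob effects of -0.36, -0.11 and -0.25, all uncalled. Here 98.5% of ob/ob-Veh cells came from a subcluster led by Il6, Cxcl10 and Ptgs2 that held 0.334% of WT-Veh and 0.285% of ob/ob-Rosi cells.

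In eWAT the same comparisons had medians closer to 0 and less even directions. Of the eWAT APC-like cells, 32.5% and 11.1% in WT-Veh, 4.06% and 2.97% in ob/ob-Veh and 19.7% and 14.1% in ob/ob-Rosi were neither progenitor-like nor preadipocyte-like. Over all APC-like cells of eWAT the member medians were -0.20 for the ob/ob effect and 0.17 for the Rosi effect. Preadipocyte-like cells had summed levels of 2289 and 2129 CPM in WT-Veh, 2107 and 1870 in ob/ob-Veh and 1881 and 2484 in ob/ob-Rosi, so the ob/ob-Rosi libraries spanned the others. edgeR called 0 of 43 members for each effect, as did DESeq2, while edgeR called 5.01% and 5.11% of 12603 genes. At an unadjusted p under 0.05, 2 were lower for the ob/ob effect (10.1% of all genes), and 1 was higher and 1 lower for the Rosi effect (18.8% of all genes in either direction). The median was -0.10 for the ob/ob effect, with 19 of 43 above 0, and 0.12 for the Rosi effect, with 28 of 43 above 0. The ob/ob median took the other sign without WT-Veh 1, without ob/ob-Veh 2 or when scaled by library size alone, at 0.14 at most. The Rosi median did so without ob/ob-Veh 2 or without ob/ob-Rosi 2, at -0.10 at least. RNA polymerase I genes had medians of 0.18 for the ob/ob effect and -0.09 for the Rosi effect, and box H/ACA genes 0.03 and 0.07. Their summed levels were 279 and 322 CPM in WT-Veh, 325 and 346 in ob/ob-Veh and 270 and 363 in ob/ob-Rosi for RNA polymerase I, and 183 and 183, 211 and 216, and 171 and 295 CPM for box H/ACA, so ob/ob-Rosi spanned ob/ob-Veh in both. Large subunit genes had 9 of 10 above 0 for the Rosi effect (median 0.36). Their summed level was 332 and 316 CPM in WT-Veh, 311 and 285 in ob/ob-Veh and 258 and 441 in ob/ob-Rosi. The ob/ob-Rosi libraries thus spanned ob/ob-Veh here as well.

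Nop14 came nearest to a call in eWAT preadipocyte-like cells, at 40.4 and 27.6 CPM in WT-Veh, 19.4 and 16.4 in ob/ob-Veh and 21.4 and 30.3 in ob/ob-Rosi (-1.04 ± 0.34 SE, edgeR adjusted p = 0.124). Ncl was at 311 and 271, 204 and 185, and 201 and 247 CPM (ob/ob effect -0.71 ± 0.30, edgeR adjusted p = 0.242). Tsr1, a GTPase-like factor of late small subunit assembly, was highest in ob/ob-Veh, at 17.8 and 12.2, 26.2 and 25.4, and 22.7 and 19.0 CPM (0.67 ± 0.32, edgeR adjusted p = 0.302). WT-Veh and ob/ob-Veh did not overlap in these 3 genes.
For the Rosi effect, Nhp2 was at 54.4 and 60.2, 44.6 and 46.9, and 44.4 and 115 CPM (0.94 ± 0.40, edgeR adjusted p = 0.236). Imp3 was at 92.2 and 132, 82.2 and 82.5, and 92.1 and 155 CPM (0.71 ± 0.32, edgeR adjusted p = 0.274). Polr1a lay lower in ob/ob-Rosi, at 20.04 and 22.0, 24.8 and 36.8, and 20.1 and 16.2 CPM (-0.64 ± 0.28, edgeR adjusted p = 0.253). The Nhp2 and Imp3 differences came mostly from ob/ob-Rosi 2. Npm1 (402 and 391, 391 and 262, 387 and 410 CPM) and Fbl (58.5 and 48.0, 51.0 and 40.3, 49.0 and 63.3 CPM) were uncalled for both effects. Almost all ob/ob-Veh cells of this class (99.4%) came from a subcluster led by Agt, Trf and Igf1 that held 0.0529% of its WT-Veh and 0.226% of its ob/ob-Rosi cells. Another subcluster, led by AY036118, mt-Atp8, Egfros and Ccl8 with no preadipocyte marker among its leading genes, held 61.7% of the WT-Veh, 39.7% of the ob/ob-Rosi and 0.25% of the ob/ob-Veh cells. Summed macrophage markers were 2715 and 1612 CPM in WT-Veh, 303 and 550 in ob/ob-Veh and 2108 and 1651 in ob/ob-Rosi. Without the subcluster led by AY036118, an alternative chosen after seeing the data, edgeR called Tsr1 higher for the ob/ob effect (1.19, edgeR adjusted p = 0.0401, 2.64% of all genes called higher) and Imp3 higher for the Rosi effect (0.91, edgeR adjusted p = 0.0399, 6.39%), and the member medians were -0.11 and 0.18. The ribosomal protein medians were then -0.43 and 0.52. Of 82 ribosomal protein genes, edgeR called 2 lower for the ob/ob effect (514 of 12623 genes) and 6 higher for the Rosi effect (6.39% of all genes).

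Among eWAT progenitor-like cells 32 members passed the filter on low counts, since 4 libraries held only 52 to 138 such cells. The summed level of all 43 was 2396 and 2473 CPM in WT-Veh, 2130 and 1991 in ob/ob-Veh and 2033 and 2595 in ob/ob-Rosi. edgeR and DESeq2 called 0 of 32 for both effects (edgeR called 3.17% and 2.66% of 7059 genes), and at an unadjusted p under 0.05, 2 were lower for the ob/ob effect (8.71% of all genes), and 1 was higher and 1 lower for the Rosi effect (14.9% in either direction). Rrp1 was at 132 and 123 CPM in WT-Veh, 60.2 and 74.7 in ob/ob-Veh and 82.2 and 138 in ob/ob-Rosi (ob/ob effect -0.90 ± 0.26 SE, edgeR adjusted p = 0.0892, and Rosi effect 0.65 ± 0.27, adjusted p = 0.284). Nop58, of the box C/D core, was at 27.8 and 69.3, 86.1 and 72.5, and 26.7 and 43.5 CPM (Rosi effect -1.26 ± 0.38, edgeR adjusted p = 0.138). That value depended on how cells were assigned to the class, at -0.15 with finer clustering, -0.33 with cells assigned singly and -0.14 in the subcluster led by Igfbp5 and Pi16 alone, and without a filter on low counts edgeR called it (-1.32, adjusted p = 0.00789, the range over 16 alternatives being 0.00789 to 0.916). WT-Veh 1 matched the low ob/ob-Rosi libraries there, and WT-Veh 2 lay close to ob/ob-Veh.
Ncl was at 337 and 294, 223 and 192, and 236 and 246 CPM (ob/ob effect -0.57 ± 0.24, edgeR adjusted p = 0.249), with no overlap between WT-Veh and ob/ob-Veh. Nop14 (ob/ob effect -0.71 ± 0.34, edgeR adjusted p = 0.317) and Ebna1bp2, a large subunit factor (Rosi effect 0.53 ± 0.26, edgeR adjusted p = 0.378), had the next smallest p. The median over the 32 was -0.10 for the ob/ob effect and 0.14 for the Rosi effect, and the second was -0.07 without ob/ob-Rosi 2. All 7 large subunit genes tested lay above 0 for the Rosi effect, with a median of 0.53. Summed over all 10 large subunit genes, the level was 330 and 323 CPM in WT-Veh, 273 and 270 in ob/ob-Veh and 282 and 526 in ob/ob-Rosi. The difference thus came mostly from ob/ob-Rosi 2, which held 52 such cells. Npm1 and Fbl were uncalled for both effects, at 514 and 553, 484 and 383, and 475 and 435 CPM and at 66.0 and 82.9, 62.6 and 53.8, and 69.9 and 83.4 CPM. Genes of the response to tissue dissociation summed to 12453 and 13191 CPM in WT-Veh, 28230 and 28842 in ob/ob-Veh and 15956 and 6836 in ob/ob-Rosi. Of these, 6 of 19 rose in ob/ob-Veh (edgeR, 1.66% of all genes rose), among them Zfp36 by 2.98, Socs3 by 2.14 and Dusp1 by 1.79 on the log2 scale. Only 31.3% of the ob/ob-Veh cells of this class came from a subcluster led by Igfbp5 and Pi16, which held 93.2% of its WT-Veh and 93.2% of its ob/ob-Rosi cells, and another 48.1% came from a subcluster led by Il6 and Adamts4 and 20.6% from a subcluster led by Ptgs2 and Has1. No progenitor marker is among Il6, Adamts4, Rnd1 and Socs3, which lead the former, or Ptgs2, Has1, Ugdh and Ccl2, which lead the latter. In the cells of the subcluster led by Igfbp5 alone, an alternative chosen after seeing the data, edgeR called 0 of 31 members for both effects and the medians were -0.21 and 0.27. The ribosomal protein medians there were -0.31 and 0.26.

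Set beside the ribosomal protein genes over all classes that 6 libraries held, the members had medians of the ob/ob and Rosi effects that were mostly of the same sign and nearer to 0. The lists also differ in longest transcript, with medians of 2804 bases for members and 1076 for ribosomal protein genes. Changes went with length as well, as given below, and the part of length in the difference between the lists was not tested. The exception in sign for these effects was the Rosi effect in eWAT NPVM-like cells, at -0.05 for members and 0.35 for ribosomal protein genes. For the ob/ob effect the member median was below 0 in 10 of 10 eWAT and 6 of 6 iWAT classes, and the ribosomal protein median lay farther from 0 in 9 of 10 and in 6 of 6. For the Rosi effect the member median was above 0 in 9 of 10 eWAT and 6 of 6 iWAT classes, and ribosomal protein genes lay farther from 0 in 6 of 10 and in 6 of 6. All classes of a depot were taken from the same 6 libraries, with the same 2 ob/ob-Veh libraries behind each of these medians. The class counts are therefore repeated readings and not independent tests. Some classes also held few ob/ob-Veh cells, such as the 39 and 30 LAM-like cells of iWAT. In iWAT DC-like cells the members had medians of -0.90 and 1.03 against -2.89 and 3.39 for ribosomal protein genes, and in iWAT NKT-like cells -0.80 and 0.97 against -2.17 and 2.42. Over the alternatives the DC-like member medians ran from -1.66 to -0.42 and from 0.40 to 1.88. Those of ribosomal protein genes ran from -3.63 to -1.86 and from 2.76 to 3.87. In eWAT macrophage-like cells the members lay farther from 0, with -0.82 and 0.65 for members and -0.61 and 0.55 for ribosomal protein genes. Such cells numbered only 47 and 63 in ob/ob-Veh. In the APC-like cells of eWAT as a whole the members also lay farther, with -0.20 and 0.17 against -0.06 and 0.08. These were left out of the counts because they hold progenitor-like and preadipocyte-like cells. Taken apart, eWAT preadipocyte-like cells had -0.10 and 0.12 for members against -0.24 and 0.30 for ribosomal protein genes. In eWAT progenitor-like cells the medians were -0.10 and 0.14 against -0.13 and 0.08, and in iWAT progenitor-like cells -0.25 and 0.25 against -0.34 and 0.55. When ob/ob-Rosi was set against WT-Veh, edgeR called no member in any class, with 0% to 0.202% of all genes called, and the member medians lay between -0.26 and 0.19. In the 12 classes other than progenitor-like and preadipocyte-like, 0 to 1 member was higher and 0 to 3 were lower there at an unadjusted p under 0.05 (0.720% to 3.62% and 0.425% to 3.86% of all genes), and DESeq2 was not run. In this comparison the lists differed in sign in 4 of 10 eWAT classes (EC-like, NPVM-like, PVM-like and mesothelial-like) and 3 of 6 iWAT classes, which were preadipocyte-like (-0.26 for members and 0.21 for ribosomal protein genes), EC-like (-0.21 and 0.09) and LAM-like cells (-0.14 and 0.24). In iWAT the ribosomal protein median was above 0 in 6 of 6 classes and the member median in 3.

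**Figure D4:**
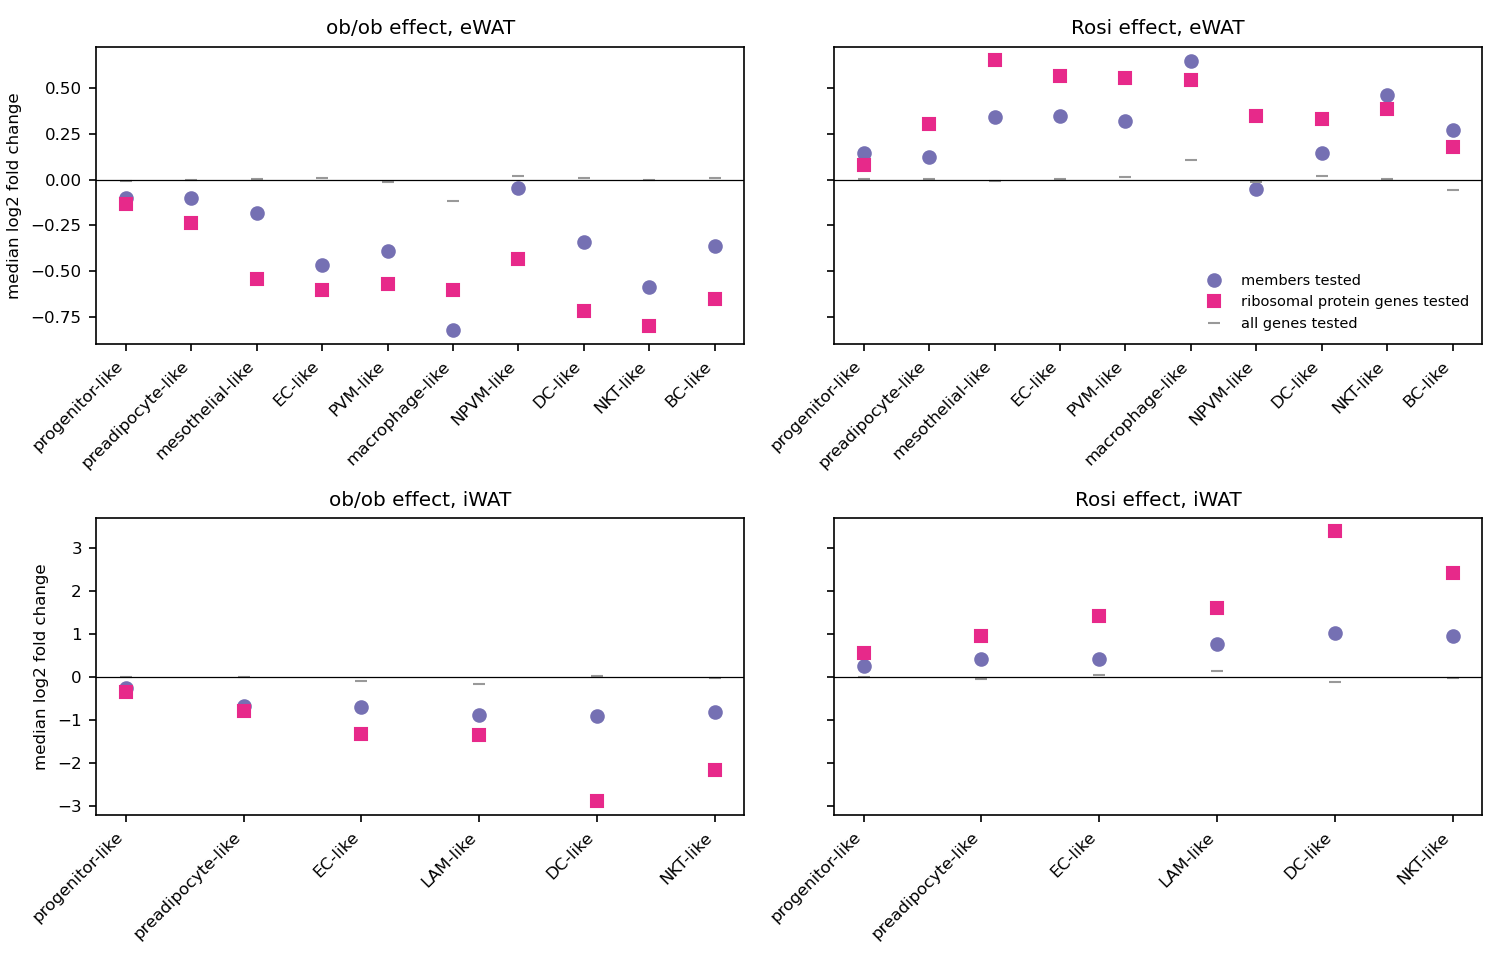
Median log2 change of the members tested (circles), the ribosomal protein genes tested (squares) and all genes tested (dashes) in each class (x axis), for the ob/ob effect (left) and the Rosi effect (right) in eWAT (top) and iWAT (bottom). The y scales of the depots differ. Both lists lie below 0 on the left, and in iWAT DC-like cells the squares reach -2.89 and 3.39 while the circles stay at -0.90 and 1.03.

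Members were called outside the progenitor-like and preadipocyte-like cells in 4 classes, which were described more fully after these values were seen. The other classes had none called by edgeR, 9 classes for each effect with 0% to 3.95% of all genes called, and at an unadjusted p under 0.05 they had 1 to 16 members lower for the ob/ob effect (4.55% to 37.2% of the members tested, and 5.62% to 12.4% of all genes) and 0 to 11 higher for the Rosi effect (0% to 33.3%, and 3.64% to 11.9% of all genes). In eWAT NKT-like cells 2 of 43 fell in ob/ob-Veh (2.98% of all genes fell) and the same 2 rose with rosiglitazone (3.16% of all genes rose). Nhp2 was at 87.8 and 92.8 CPM in WT-Veh, 35.9 and 47.2 in ob/ob-Veh and 66.5 and 124 in ob/ob-Rosi (-1.30 ± 0.34 SE, edgeR adjusted p = 0.036, and 1.40 ± 0.34, adjusted p = 0.0254). Mrto4 was at 47.9 and 41.0, 18.3 and 23.2, and 49.9 and 42.3 CPM (-1.25 ± 0.33, edgeR adjusted p = 0.0394, and 1.22 ± 0.34, adjusted p = 0.05). Both genes were lowest in both ob/ob-Veh libraries, and no call was left once cells were thinned to 700 UMIs. Dissociation genes in these cells summed to 6637 and 6174, 14637 and 13102, and 6644 and 7404 CPM.

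In eWAT PVM-like cells Nop14 (48.7 and 42.6, 20.1 and 22.0, 29.8 and 33.4 CPM) and Mrto4 (35.4 and 28.7, 16.4 and 16.4, 29.2 and 32.1 CPM) fell in ob/ob-Veh by 1.23 ± 0.22 and 1.08 ± 0.23 on the log2 scale (edgeR adjusted p = 0.0178 and 0.0348), 2 of 43 where 2.07% of all genes fell. Nhp2 rose with rosiglitazone there (61.6 and 59.97, 31.9 and 36.6, 57.9 and 79.5 CPM, 1.13 ± 0.24, edgeR adjusted p = 0.0396), 1 of 43 where 1.64% of all genes rose. In all 3 genes the ob/ob-Veh libraries lay below the others. Mrto4 also fell in mesothelial-like cells (48.5 and 37.2, 19.7 and 14.6, 31.6 and 26.2 CPM, -1.39 ± 0.34, edgeR adjusted p = 0.0491), the only call among 33 members tested, where 2.58% of all genes fell. This call was lost with DESeq2, by library size alone, after thinning and with doublets left out. Each of the PVM-like and mesothelial-like calls was lost when either ob/ob-Veh library was left out. Dissociation genes in PVM-like cells summed to 19244 and 24211, 37698 and 29916, and 20335 and 21768 CPM.

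DC-like cells of iWAT had the widest changes. For the Rosi effect 4 of 37 members tested rose, where 6.57% of all genes were called higher, and they were Nhp2 (65.2 and 103 CPM in WT-Veh, 22.9 and 0 in ob/ob-Veh, 88.5 and 128 in ob/ob-Rosi), Polr1d (112 and 306, 45.9 and 94.2, 235 and 298 CPM), Npm1 (550 and 969, 329 and 226, 857 and 873 CPM) and Fbl (116 and 304, 115 and 65.9, 217 and 298 CPM). Npm1 rose by 2.24 ± 0.59 (SE, log2, edgeR adjusted p = 0.0308) and Polr1d by 2.56 ± 0.66 (edgeR adjusted p = 0.0278). The ob/ob-Veh libraries lay below both ob/ob-Rosi libraries in each gene, and WT-Veh 1 lay near ob/ob-Veh in Fbl. The ob/ob-Veh libraries held only 130842 and 106213 UMIs of this class, so the Nhp2 and Polr1d levels there rest on few UMIs. Of the 82 ribosomal protein genes 81 rose with rosiglitazone, from 3.85% and 5.60% of UMIs in ob/ob-Veh to 28.8% and 32.4%, with 13.8% and 30.8% in WT-Veh. These are small samples, of 74 and 158, 72 and 57, and 142 and 208 cells, and they differ in other ways. Their median UMIs per cell were 2324 and 7854, 1600 and 1640, and 6495 and 5075, APC markers summed to 1179 and 1696, 10303 and 7410, and 1593 and 2315 CPM, and mitochondrial UMIs were 11.004% and 2.67%, 13.7% and 13.9%, and 3.66% and 1.95%. No member call was left without either ob/ob-Veh library or after thinning, and the part of these differences was not tested.

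Whether the effects differed between depots was tested as an interaction over 12 libraries. The labels do not say whether the eWAT and iWAT libraries came from the same mice, and the fit counted them as separate. For the Rosi effect no member was called in progenitor-like cells (0.0715% of 12585 genes were called by edgeR) or in preadipocyte-like cells (0.302% of 12900), and none for the ob/ob effect (0.119% and 0.380%). DESeq2 called 0 for the Rosi effect in both. At an unadjusted p under 0.05, 2 members in progenitor-like and 0 in preadipocyte-like cells were higher in iWAT for the Rosi effect (3.45% and 3.31% of all genes), and 3 and 2 were lower for the ob/ob effect (3.72% and 3.30%). The median difference, iWAT minus eWAT, was 0.28 and 0.29 for the Rosi effect, with 29 and 34 of 43 members above 0, and -0.25 and -0.55 for the ob/ob effect. Nop58 in progenitor-like cells (1.28 ± 0.49 SE, edgeR adjusted p = 0.711) and Mybbp1a, a nucleolar repressor of transcription, in preadipocyte-like cells (0.64 ± 0.40, edgeR adjusted p = 0.84) had the smallest p for the Rosi effect. The differences of Ncl, Npm1 and Fbl were 0.28, 0.25 and 0.05 in progenitor-like and 0.48, -0.13 and -0.38 in preadipocyte-like cells.

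In preadipocyte-like cells the members' changes went with transcript length, more closely for the Rosi effect than for the ob/ob effect. Their longest transcripts (GENCODE vM21) ran from 924 to 10012 bases with a median of 2804, while ribosomal protein transcripts had a median of 1076. The longest annotated transcript of any type was taken for each gene, so it need not be the mRNA that was counted. With all genes split into 3 equal length classes, the Rosi effect in eWAT had member medians of 0.39 in the shortest class (17 of 19 above 0), 0.09 in the middle (9 of 13) and -0.28 in the longest (2 of 11), and all genes had 0.28, -0.02 and -0.20. In iWAT the Rosi medians were 0.55, 0.41 and -0.01, against 0.35, -0.09 and -0.27 for all genes, so members lay above the genes of their length in each class. For the iWAT ob/ob effect the member medians were -0.77, -0.72 and -0.06 and those of all genes -0.33, 0.03 and 0.24, and in eWAT they were -0.21, -0.10 and 0.19 against -0.18, 0.04 and 0.13. Ribosomal protein genes, all lengths together, had ob/ob and Rosi medians of -0.24 and 0.30 in eWAT and -0.79 and 0.96 in iWAT. Members of the shortest class were thus near them, except for the iWAT Rosi effect. Across the 43 members, which share libraries, Spearman's rho of length and Rosi effect was -0.68 in eWAT and -0.48 in iWAT, and that of length and ob/ob effect was 0.29 and 0.37. The trend was not particular to this class. The Rosi rho was negative in every class of both depots, at its weakest -0.22 in eWAT progenitor-like cells. It was -0.62 in eWAT PVM-like and -0.53 in iWAT EC-like cells. For ob/ob-Rosi against WT-Veh in preadipocyte-like cells rho was -0.53 in eWAT and -0.43 in iWAT. The long genes include Polr1a, Heatr1 and Utp20, which in iWAT lay below 0 for the Rosi effect (-0.47, -0.70 and -0.68, all uncalled), and the short ones Nhp2 and Imp3.

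**Figure D5:**
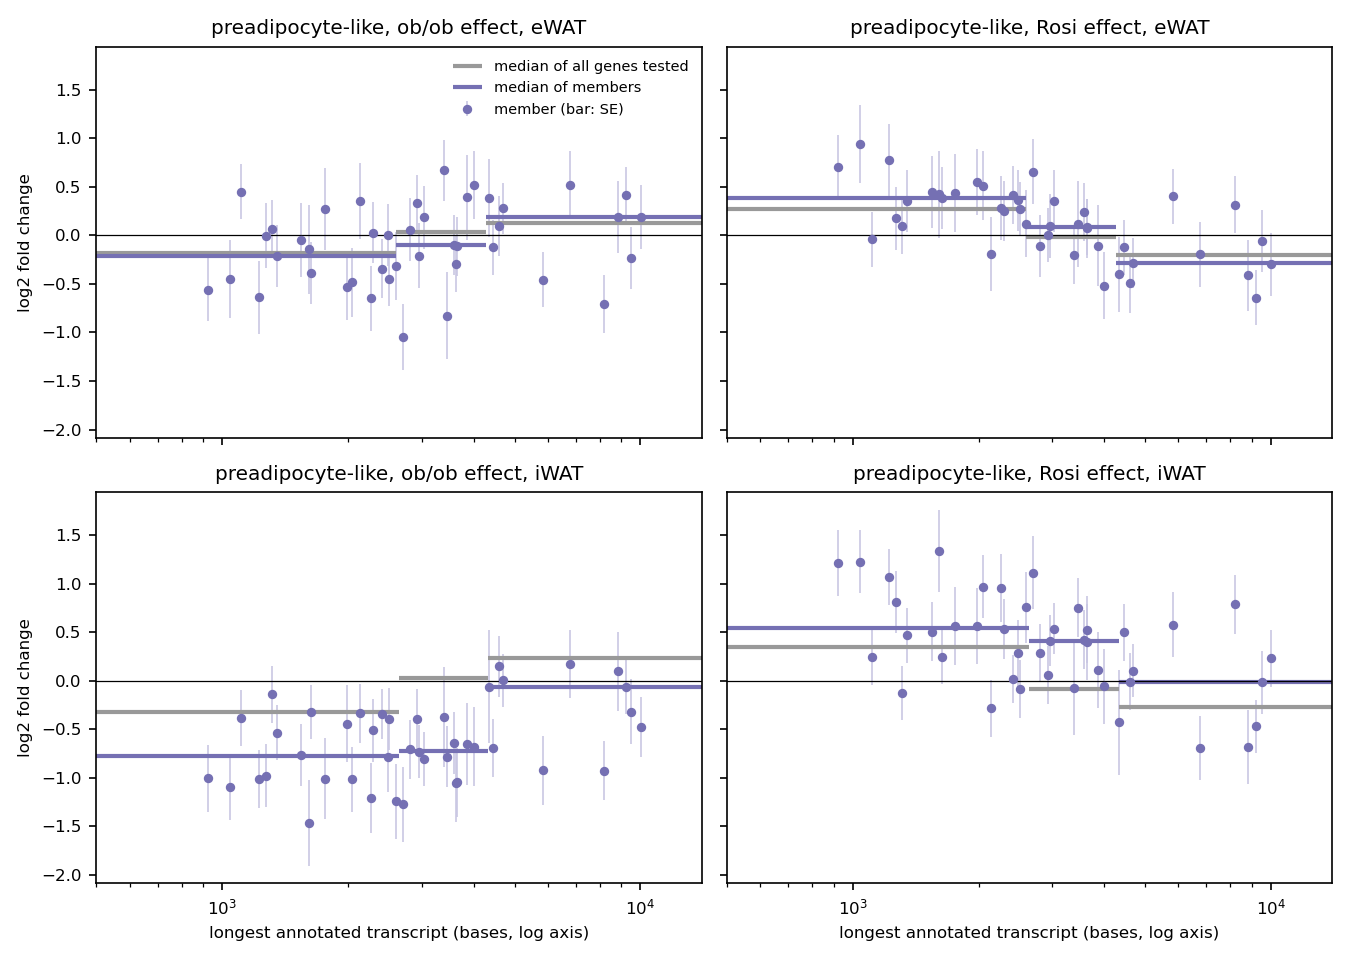
Log2 change of each member in preadipocyte-like cells (y axis) against its longest transcript in bases (x axis, log scale), for both effects and depots, with bars of 1 SE. Purple and gray lines are the medians of members and of all genes in each of 3 equal length classes. The Rosi effect goes down with length in both lists, from 0.39 to -0.28 for members in eWAT.

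The wider pathway was read from lists of other genes. Of 131 other ribosome biogenesis genes none was called by edgeR in the 8 comparisons. Their medians were -0.50 and 0.35 for the ob/ob and Rosi effects in iWAT preadipocyte-like cells (of 129 tested, 26 lower for the first and 30 higher and 1 lower for the second at an unadjusted p under 0.05, where 9.83% of all genes were lower for the first and 10.9% higher for the second), -0.26 and 0.33 in iWAT progenitor-like, -0.11 and 0.10 in eWAT preadipocyte-like and -0.20 and 0.13 in eWAT progenitor-like cells. Translation factors had 0 of 41 called by edgeR and medians of -0.52 and 0.56 in iWAT preadipocyte-like cells, with 14 lower and 11 higher at the same limit. DESeq2 counts were not taken for these lists. In dividing-cell genes of eWAT preadipocyte-like cells, 6 of 24 fell in ob/ob-Veh (edgeR, 3.30% of all genes fell), among them Ccnb1 by 3.38, Cdk1 by 3.04 and Birc5 by 2.93 on the log2 scale, and 4 rose with rosiglitazone (3.17% of all genes rose). Macrophage markers in this class were also lowest in ob/ob-Veh. Cycling LAM-like cells of eWAT numbered 900 and 170 in WT-Veh, 15 and 9 in ob/ob-Veh and 352 and 366 in ob/ob-Rosi. The part of RNA from such cells in these changes was not tested.

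Myc, whose protein binds the E-box letters shown above, had the other sign from the members' medians in progenitor-like cells. In eWAT progenitor-like cells Myc was at 48.6 and 44.0 CPM in WT-Veh, 304 and 251 in ob/ob-Veh and 32.9 and 25.4 in ob/ob-Rosi, rising by 2.63 ± 0.29 (SE, log2, edgeR adjusted p = 0.0015) in ob/ob-Veh and falling by 3.22 ± 0.32 with rosiglitazone (edgeR adjusted p = 0.00149). Myc is also among the leading genes of the subcluster led by Il6 and Adamts4, which held 48.1% of the ob/ob-Veh, 1.45% of the WT-Veh and 3.68% of the ob/ob-Rosi cells of this class. In the subcluster led by Igfbp5 alone neither effect was called, at 1.13 ± 0.53 (edgeR adjusted p = 0.315) and -1.42 ± 0.56 (edgeR adjusted p = 0.298), so over the whole class a change in Myc per cell and a change in the makeup cannot be told apart. In iWAT progenitor-like cells it was at 95.03 and 109, 164 and 202, and 46.2 and 40.3 CPM and fell with rosiglitazone by 2.06 ± 0.25 (edgeR adjusted p = 0.00693), while the ob/ob effect was not called (0.83, adjusted p = 0.213). The members' medians in these comparisons were -0.10 and 0.14 in eWAT and -0.25 and 0.25 in iWAT. Genes of the dissociation response summed highest in ob/ob-Veh in both classes, and their part was not tested. Of the mTOR-linked genes, Eif4ebp1, which encodes an inhibitor of cap-dependent translation, rose with rosiglitazone in eWAT progenitor-like cells (156 and 145, 51.9 and 63.3, 100.7 and 246 CPM, 1.52 ± 0.33, edgeR adjusted p = 0.0382), and Ddit4, which encodes an inhibitor of mTOR, fell in ob/ob-Veh (59.0 and 127, 30.3 and 11.5, 49.3 and 87.0 CPM, -2.15 ± 0.49, edgeR adjusted p = 0.0412).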

How the data were processed

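UMIs of 12 single-cell libraries were read from the deposited 10x Genomics matrices, which hold whole-number counts per gene and cell that the authors made with Cell Ranger 3.0.2 (bcl2fastq 2.19.1.403, mm10, per the labels). The iWAT matrices held no barcode above 22000 UMIs or at 25% mitochondrial UMIs or more, so they were filtered before deposit. Cells with 700 to 22000 UMIs, 200 to 6000 genes and under 25% mitochondrial UMIs were kept. Cells of each depot were clustered with scanpy 1.11.5 (2000 variable genes without members and ribosomal protein genes, 25 components, 20 neighbors, Leiden resolution 1, and APC-like cells again at 15 components and 0.6), and clusters were named from marker lists. Details of the naming were set after clusters were seen and before groups were compared. Names rebuilt this way may differ from the study's, so no share is set beside the study's.

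The 43 members and all gene lists were chosen with earlier results of these data known. Within each class with at least 20 cells in every library, UMI counts of its cells were added up by library and tested with edgeR 4.0.16 (quasi-likelihood, TMM, filterByExpr, 3 residual degrees of freedom, R 4.3.3), adjusted over all genes tested, with calls at 0.05 or less and 1.1-fold or more. Across classes, a class with at least 4 libraries was compared with the mean of the others, with library as a block. DESeq2 1.42.0, other scalings and filters, thinning to 700 UMIs, doublet removal (Scrublet scores, 5.18% to 14% of cells per library) and leaving out each library were alternatives. The fits were tested on simulated data. Named genes were Ncl, Npm1 and Fbl and, where no member was called, the 3 with the smallest p. Across classes they were the 5 highest and the 5 widest in range, and others named were chosen after their values were seen. Libraries shared at most 99 barcodes (1.05% of the smaller), the files held 0 columns of other samples, and per the study's methods the samples were prepared as a single batch and sequenced together. Libraries are labeled as biological replicates, and the study's text speaks of them as individual mice. Replicate numbers were not shown to pair the libraries: same-numbered libraries correlated at r of 0.0362 to 0.54, with only 2 pairs per comparison. Transcript lengths came from GENCODE vM21 and promoters from RefSeq. Of the members, 8 overlap another gene on the same strand, and the files list none of those genes.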

Additional observations from a re-analysis of the deposited data

Results flagged for a closer look

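The Rosi effect differed between depots for 9 ribosomal protein genes in DC-like cells, all higher in iWAT than in eWAT by the depot interaction of the edgeR fit, where 18 of 9798 genes (0.184%) were called. The median difference over ribosomal protein genes was 3.16 on the log2 scale. Over the members it was 0.85 and edgeR called 0 of them, with 8 higher in iWAT at an unadjusted p under 0.05 (9.94% of all genes), and DESeq2 was not run on the interaction in this class. The iWAT libraries behind this value had 57 to 208 DC-like cells each.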

How the results depend on the processing

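Counts of members called are given in the order DESeq2, no filter on low counts, replicate block. In iWAT preadipocyte-like cells the ob/ob effect had 1, 9 and 4 and the Rosi effect 2, 7 and 5, against 0 as reported. Without a filter 1 was called for the eWAT progenitor-like Rosi effect, the eWAT preadipocyte-like ob/ob effect and the iWAT progenitor-like Rosi effect, and the replicate block gave 1 for the last pair. Leaving out each library gave 0 to 1 (ob/ob) and 0 to 0 (Rosi) in eWAT progenitor-like, 0 to 1 and 0 to 5 in eWAT preadipocyte-like, 0 to 0 and 0 to 1 in iWAT progenitor-like, and 0 to 6 and 0 to 6 in iWAT preadipocyte-like cells. The 5 were called without ob/ob-Rosi 1, and in iWAT preadipocyte-like cells the Rosi effect had 6 without WT-Veh 1 and 4 without WT-Veh 2. A library left alone in its group takes the spread of the others. The interaction between depots had 0 to 0 calls when any library was left out. The cause of these shifts was not tested.

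Members higher in cycling LAM-like cells of eWAT (15) numbered 24 with TMM without ribosomal protein and mitochondrial genes, 8 thinned, 24 with doublets left out and 18 to 23 without an ob/ob-Veh library. The ob/ob-Veh libraries of eWAT held too few such cells to count, so these leave-outs do not check the class itself. Without any other library the class had fewer than 4 libraries and was not fitted. In iWAT (9) the members higher in these cells numbered 15 by library size alone, 2 thinned and 2 to 17 without single libraries. The alternatives for the other classes were chosen after seeing the data. In the order DESeq2, library size alone, thinned and doublets left out, NKT-like cells had 1, 0, 0 and 1 (ob/ob) and 0, 1, 0 and 0 (Rosi), and mesothelial-like cells 0, 0, 0 and 0 (ob/ob). PVM-like cells had 1 thinned and 7 with the replicate block (ob/ob), and 3 by DESeq2, 0 by library size, 2 thinned and 3 with the block (Rosi). The block gave 4 in mesothelial-like cells. iWAT DC-like cells had 3 by DESeq2 and 1 with the block (ob/ob) and 0 thinned (Rosi). Leaving out single libraries gave 0 to 7 and 0 to 5 in NKT-like, 0 to 3 and 0 to 1 in PVM-like, 0 to 1 and 0 to 0 in mesothelial-like, and 0 to 12 and 0 to 14 in DC-like cells. In these classes the number of all genes called moved with single libraries as well, so the member counts are not particular to the members. Counting unnamed APC-like cells as progenitor-like, also chosen after seeing the data, left 0 calls in iWAT with medians of -0.45 and 0.49. Without the subcluster led by AY036118, eWAT preadipocyte-like cells had 1 call for each effect, and the eWAT progenitor-like subcluster led by Igfbp5 alone had 0.

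Signs turned for few named genes. Npm1 in eWAT progenitor-like cells (Rosi) was -0.0059 without a filter, -0.251 thinned, -0.178 without ob/ob-Veh 2 and -0.0917 without ob/ob-Rosi 1 (up to 0.289 without single libraries). In iWAT progenitor-like cells (ob/ob) Npm1 was 0.254 and Fbl 0.243 without WT-Veh 2 (as low as -0.396 and -0.535 without WT-Veh 1). In iWAT preadipocyte-like cells Fbl was 0.577 thinned (ob/ob) and -0.457 thinned, -0.0163 with doublets left out, -0.0266 without ob/ob-Veh 2 and -0.0876 without ob/ob-Rosi 2 (Rosi, up to 0.171 without single libraries). The number of all genes called also moved, from 114 to between 0 and 1342 for the iWAT preadipocyte-like Rosi effect and from 89 to between 0 and 1130 for the ob/ob effect. The replicate block moved no other count by over 1.5 times. Of the values of single named genes under alternatives that kept all libraries, 510 kept their direction and side of the threshold, 23 lost a call, 20 gained a call and 5 took the other sign, and 6 more took the other sign without 1 library. With 2 libraries a group, simulated 2-fold changes in genes drawn at random were mostly not called, and depth was not varied in that simulation.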
